A study of Mus musculus with 6 samples.

Results

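Folate, serine and nucleotide metabolism form a connected network, and transcripts of 35 of its enzymes and carriers were followed in T-ALL, a leukaemia of T-cell precursors, of mice with and without Phf6. The genes were listed by symbol from the pathway, with earlier results of these data known, so their shares beside those of all genes are description and not a test. Their symbols stood on 36 of the 23306 identified rows, because Ppat was written on 2 rows. The second of these was described as coenzyme A synthase (Coasy in GENCODE M21) and was left out, so all 35 members were found, each once. Of these, 34 passed the filter on low values (at least 10 normalised reads in at least 3 libraries), and Aldh1l2 did not.

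PolyA RNA was sequenced from isogenic C57BL/6 T-ALL tumours taken from bone marrow. There were 3 libraries labelled Phf6-WT and 3 labelled Phf6-KO. Phf6 encodes a chromatin protein with zinc fingers, is often mutated in human T-ALL, and was removed by a Cre recombinase that tamoxifen switches on, and corn oil was the vehicle. The labels give the genotype of each library and not its injection, so drug exposure and loss of the gene cannot be told apart. The sources used here do not give the promoter of the Cre transgene, the event that started the leukaemia, the age of the mice, or whether the libraries of a genotype were made from different mice. The p-values therefore measure the spread between these samples, which may be technical. Where values of single libraries are given, they stand in the order of the library numbers, 1 to 3.

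In this network serine is made from a glycolytic intermediate and gives up a carbon unit to tetrahydrofolate. Mitochondrial and cytosolic enzymes then carry that unit as formate and as folate derivatives to the synthesis of purines and thymidylate. Purines and pyrimidines are built on activated ribose phosphate, and ribonucleotide reductase turns ribonucleotides into the deoxynucleotides used for DNA. Lymphoid leukaemias depend on this supply while they divide, and the antifolates and thiopurines used against them act on these enzymes or enter through these carriers.

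Reads assigned to genes numbered 46067511 to 54953145 a library. Phf6 itself stood at 5508, 4240 and 5075 normalised reads in wild type and 1781, 2337 and 1755 in knockout, so it was lower but not absent in all knockout libraries (log2 fold change -1.34 ± 0.13 SE; limma adjusted p = 0.00184). Of 17993 genes tested, 957 rose and 618 fell in the knockout (limma, Benjamini-Hochberg adjusted p below 0.05). When libraries were scaled by their totals alone, there were 1217 rises and 300 falls, and the median log2 fold change of all genes moved by 0.082. Marker lists moved between the groups as well. The summed level of 18 neutrophil and granulocyte precursor markers was between 6421 and 24111 normalised reads in wild type and between 50969 and 67932 in knockout. All 18 had positive log2 fold changes (9 rose by limma, 17 by edgeR and 18 by DESeq2). The 16 monocyte and macrophage markers summed to 2935 to 6431 reads in wild type and 9257 to 15706 in knockout. By limma 6 of these rose and 10 were not called (8 rose by edgeR, 9 by DESeq2), with 14 positive and 2 negative log2 fold changes. The 12 B-cell markers summed to 159 to 228 reads in wild type and 374 to 909 in knockout. Of 9 tested 7 rose by limma (6 by edgeR, 8 by DESeq2). These sums are low for 12 genes, and a low gene can pass the filter through its knockout values alone. Rises among the B-cell markers tested are therefore favoured in advance. T-lineage markers, 17 in all, summed to 363181 to 378490 reads in wild type and 301576 to 340444 in knockout, with 3 falls (Cd247, Cd5 and Tcf7) and no rise. The other 14 were not called, and of the 17 log2 fold changes 12 were negative and 5 positive. No matched marker of these lists was at 0 in all libraries. Of 11 erythroid markers none was called by limma (1 at an unadjusted p below 0.05; 0 by edgeR, 1 by DESeq2), and of 6 stromal and endothelial markers 2 rose (Lpl and Pdgfrb) and 1 fell (Col1a1).

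Most of the network was lower in the knockout libraries by modest amounts. Of 34 tested members 14 fell and 1 rose. Over all genes tested 8.75% were called, as 3.43% fell and 5.32% rose. Where the filter asked for 1 CPM in 3 libraries, 4.44% fell and 5.23% rose. The means of the 14 that fell were 18.3% to 32.0% lower. The median log2 fold change of the members was -0.28, beside -0.01 over all genes tested, and 32 of 34 members had a negative value, beside 51.7% of all genes. All 3 knockout values lay below all 3 wild-type values for 20 members, among them all 14 that fell, which was so for 16.2% of genes. All 3 lay above for Ggh alone among the members, and for 15.0% of genes. Together the 35 members held 0.530%, 0.494% and 0.533% of the wild-type reads and 0.457%, 0.453% and 0.422% of the knockout reads. Knockout library 3 was the lowest of the 6 libraries for 25 of 34 members and for 13 of the 14 that fell, Slc19a1 being the exception. The share of all genes tested for which it was the lowest is not given here, so this cannot be read as particular to the members.

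The number of falls depended on single libraries. It was 5 without knockout library 1, 2 without knockout library 3 (Shmt1 and Shmt2), 3 without wild-type library 1 and 4 without wild-type library 3. Falls among all genes dropped too, from 618 to 344, 57, 88 and 169 in the same order. Without limma's trend and robust variance 1 member fell (Shmt2), as did 124 genes in all, and Shmt1 had an adjusted p of 0.0503. Scaled by library totals it was 8, with Phgdh, Ppat, Gart, Adsl, Cad and Umps no longer called (1.67% of all genes fell and 6.79% rose), and with edgeR's quasi-likelihood test it was 10 (2.55% of all genes fell and 5.2% rose). In bulk RNA, fewer leukaemia cells and less of these transcripts in each cell cannot be told apart. The part of the shift in T-lineage and myeloid markers in these falls was not tested.

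**Figure D1:**
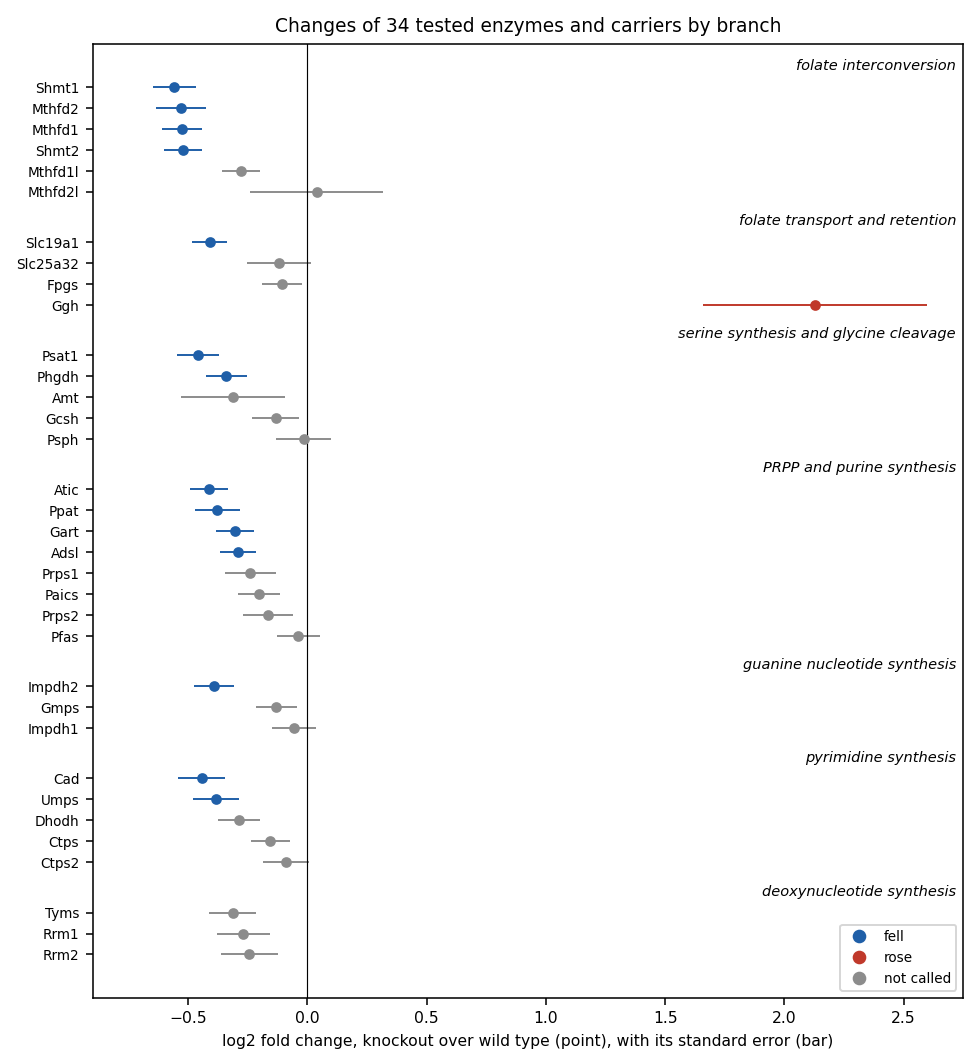
Log2 fold change, knockout over wild type, on the log2(value + 2) scale (points) with its standard error (bars) for the 34 tested members, grouped by branch and coloured by the limma call. Apart from Ggh at 2.13, values run from -0.56 for Shmt1 to 0.04 for Mthfd2l.

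The largest falls were in the enzymes that load and convert folate carbon units. Of 6 tested members of this branch 4 fell, with a branch median of -0.52. Shmt1 and Shmt2 encode the cytosolic and mitochondrial serine hydroxymethyltransferases, which move a carbon from serine to tetrahydrofolate. Shmt2 (ENSMUSG00000025403; GRCm38 chromosome 10, 127517123 to 127522444, minus strand) had 14612, 13996 and 14873 normalised reads in wild type and 10639, 10253 and 9413 in knockout. The groups were separated by more than the range within either of them, and the log2 fold change was -0.52 ± 0.08 (SE; limma adjusted p = 0.00603). Shmt1 (ENSMUSG00000020534; chromosome 11, 60788104 to 60811718, minus strand) had 4447, 4210 and 4601 reads in wild type and 3067, 3246 and 2706 in knockout. Its change was -0.56 ± 0.09 (limma adjusted p = 0.00743), and both Shmt genes kept their calls when any of the 6 libraries was left out (limma adjusted p at most 0.0489 for Shmt1 and 0.0417 for Shmt2).

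Mthfd1, the cytosolic enzyme with 3 activities that joins formate to tetrahydrofolate and interconverts its products, fell by a like amount. Mthfd1 (ENSMUSG00000021048; chromosome 12, 76255298 to 76319803, plus strand) had 8423, 7164 and 7752 reads in wild type and 5546, 5477 and 5152 in knockout (log2 fold change -0.53 ± 0.08 SE; limma adjusted p = 0.00726). Without knockout library 3 its adjusted p was 0.0556. Mthfd2 encodes the mitochondrial dehydrogenase and cyclohydrolase that is high in embryos and tumours. It had 3593, 3579 and 3645 reads in wild type, a spread of 34.7 (SD, n = 3), and 2396, 2920 and 2219 in knockout, a spread of 364. Its change was -0.53 ± 0.11 (limma adjusted p = 0.0164), with calls lost without knockout library 1 or 3 or wild-type library 1 or 3 (limma adjusted p up to 0.0861).

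The remaining folate enzymes differed from these. Mthfd1l, the mitochondrial formate-producing synthetase, had 6920, 6396 and 6655 reads in wild type and 5415, 5796 and 5256 in knockout. These groups did not overlap, but the change of -0.28 ± 0.08 did not pass (limma adjusted p = 0.0551; DESeq2 adjusted p = 0.0358). Mthfd2l, a scarcer relative of Mthfd2, had 136, 84.9 and 195 reads in wild type and 150, 122 and 134 in knockout, so the groups overlapped (limma adjusted p = 0.949), and the sign of its change differed between fits. Aldh1l2, a mitochondrial formyltetrahydrofolate dehydrogenase, had at most 5.22 reads in every library and was not tested. It shares 14.1% of its exon length with D10Wsu102e on the opposite strand.

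The RefSeq sequences upstream of the starts of Shmt1, Shmt2 and Mthfd2 (GRCm38.p6) are shown because these genes had among the largest falls of the network. Each comes from the longest run in no GENCODE exon within the 250 bases before the RefSeq start, cut to its last 150 bases. Mthfd1, with a like fall (-0.53), had no such run and is not shown. The stretches are printed 5′ to 3′ on the strand of the gene, with CCAAT boxes (CCAAT or its complement ATTGG) and E-boxes (CACGTG) in capitals. For Shmt1 the stretch is chr11:60811266-60811415, for Shmt2 chr10:127522445-127522594 and for Mthfd2 chr6:83317607-83317756, all on the minus strand. The GENCODE M21 gene runs from 60788104 to 60811718 for Shmt1 and from 83305691 to 83325908 for Mthfd2. These stretches are thus upstream of the RefSeq start but inside the GENCODE gene, and that of Shmt2 lies outside it.
Shmt1: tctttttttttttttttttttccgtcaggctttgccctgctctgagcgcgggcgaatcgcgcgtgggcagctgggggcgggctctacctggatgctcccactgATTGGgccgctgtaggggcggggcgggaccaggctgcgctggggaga
Shmt2: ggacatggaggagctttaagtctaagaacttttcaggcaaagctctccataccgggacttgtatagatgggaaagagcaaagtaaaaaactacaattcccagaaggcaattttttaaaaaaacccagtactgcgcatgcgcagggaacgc
Mthfd2: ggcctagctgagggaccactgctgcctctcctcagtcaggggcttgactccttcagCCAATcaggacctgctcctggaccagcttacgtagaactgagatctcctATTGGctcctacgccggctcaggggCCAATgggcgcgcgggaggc

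The Mthfd2 stretch held 3 CCAAT boxes, the Shmt1 stretch held 1 and the Shmt2 stretch held neither motif. RefSeq windows from 250 bases before to 50 after a start were matched for 30 of 35 members, including all 14 that fell; Aldh1l2, Dhodh, Ggh, Pfas and Slc25a32 had none. On either strand, CCAAT was in the windows of 17 of 30 members and of 8 of the 14 that fell, beside 41.1% of all genes with a window. The E-box CACGTG, the site class bound by MYC and MAX, was in those of 4 of 30 members and 2 of the 14, beside 8.09% of all genes. The amino acid response element core TGATGNAA, a motif of ATF4, was in 1 member (Prps1) and none of the 14, beside 4.51%, and the E2F sites TTTCCCGC or TTTGGCGC in 2 members and 1 of the 14, beside 486 of 27025 genes. The 4 E-boxes are printed with 12 bases on each side because they are the places where a member's window holds that motif; Atic and Impdh2 fell and Paics and Tyms were not called. They lie at chr1:71557137-71557166 (plus strand), chr9:108560314-108560343 (plus), chr5:76951087-76951116 (plus) and chr5:30073669-30073698 (minus), in the order printed, with the motif in capitals. Unlike the stretches above, these were not limited to bases outside GENCODE exons. The first base of the E-box lies in a GENCODE exon for Impdh2 and Paics and in none for Atic and Tyms. The GENCODE start of Atic, 71557150, lies within its printed stretch.
Atic: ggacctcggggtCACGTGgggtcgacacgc
Impdh2: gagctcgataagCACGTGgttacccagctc
Paics: cgcctcggaaagCACGTGgagggacctgct
Tyms: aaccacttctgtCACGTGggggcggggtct

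Among the genes that bring folate into the cell and hold it there, 1 of 4 fell and 1 rose. Slc19a1, the reduced folate carrier that also imports methotrexate, had 4996, 4933 and 4914 reads in wild type and 3841, 3653 and 3673 in knockout with little spread within either group. Its change was -0.41 ± 0.07 (SE; limma adjusted p = 0.0109), and the call was lost without knockout library 3 or wild-type library 1 (limma adjusted p up to 0.0589). Fpgs, which adds glutamates that trap folate in the cell, was at 2049 ± 51.6 reads (SD, n = 3) in wild type and 1901 ± 90.6 in knockout, and its change of -0.11 did not pass (limma adjusted p = 0.461). The mitochondrial folate carrier Slc25a32 was at 453 ± 27.3 and 418 ± 46.4 reads, and its groups overlapped (limma adjusted p = 0.625).

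Ggh, the lysosomal hydrolase that removes those glutamates and so lets folate leave, was the single member that rose. Its normalised read counts were 9.01, 37.5 and 9.04 in wild type and 70.9, 80.0 and 65.2 in knockout. All knockout libraries were higher, and wild-type library 2 lay between the groups. Wild-type libraries 1 and 3 lay below the floor of the filter on low values, so Ggh was tested only because of its knockout values. The size of its rise therefore rests on low wild-type values. The log2 fold change was 2.13 ± 0.47 (SE, limma adjusted p = 0.0271, edgeR adjusted p = 0.0464). It was lower, at 1.98, with edgeR and with DESeq2. In limma it was 2.26 with a pseudocount of 0.5 and 1.66 with a pseudocount of 10. The call held without wild-type library 2 (limma adjusted p = 0.000442) and was lost without any other library (up to 0.115). Per length of exon Ggh stood at 9.43 ± 8.38 normalised reads per kb in wild type (SD, n = 3), far below Slc19a1 at 1065 ± 9.24. The summed neutrophil and granulocyte precursor markers were 6421, 24111 and 10247 reads in wild type and 64555, 67932 and 50969 in knockout. Wild-type library 2 was the highest wild-type library in both, and knockout library 2 the highest of all. The part of these cells in the level of Ggh was not tested.

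**Figure D2:**
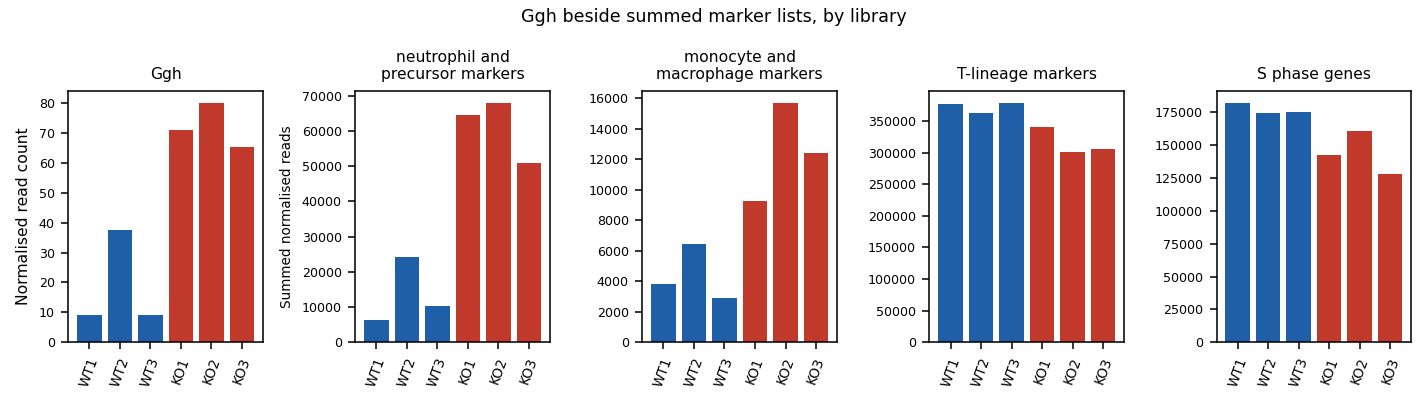
Normalised read count of Ggh and the summed normalised reads of 4 marker lists in each library, with wild type in blue and knockout in red; each bar is 1 library and each axis starts at 0. Ggh runs from 9.01 to 80.0 reads, and S phase genes from 127949 to 181917.

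In serine synthesis the first and second enzymes fell and the last did not. Phgdh, phosphoglycerate dehydrogenase, which opens the route from glycolysis, had 17035, 18453 and 17017 reads in wild type and 14865, 14113 and 12571 in knockout. The change was -0.34 ± 0.09 (SE; limma adjusted p = 0.0415), but edgeR gave an adjusted p of 0.0539 and leaving out any library lost the call (limma adjusted p 0.0514 to 0.133). Psat1, the aminotransferase of the next step, had 10486, 9630 and 9944 reads in wild type and 7104, 8098 and 6713 in knockout (-0.46 ± 0.09; limma adjusted p = 0.0153), a call lost without knockout library 1 or 3 or wild-type library 1 or 3 (up to 0.0801). Psph, the phosphatase that releases serine, was at 1690 ± 112 reads (SD, n = 3) and 1680 ± 224, with overlapping groups (limma adjusted p = 0.949). Psph shares 10.4% of its exon length with Cct6a on the opposite strand, and whether reads were counted by strand is not stated. Of the glycine cleavage proteins, Gcsh (-0.13; limma adjusted p = 0.448) and the scarce Amt (-0.31; limma adjusted p = 0.414) did not pass, and their groups overlapped.

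Transcripts of some enzymes of de novo purine synthesis were called lower. Ppat, Gart, Adsl and Atic fell, which is 4 of the 8 members that make ribose phosphate donor and inosine monophosphate, and the branch median was -0.27. Ppat, the amidotransferase of the committed step, had 5733, 5640 and 5537 reads in wild type and 4375, 4849 and 3842 in knockout (-0.38 ± 0.09 SE; limma adjusted p = 0.0372; edgeR adjusted p = 0.0532). Gart, an enzyme with 3 activities that uses formyl folate, had 13166, 11875 and 13156 reads in wild type and 10507, 10477 and 9941 in knockout (-0.30 ± 0.08; limma adjusted p = 0.0425; edgeR adjusted p = 0.0551). Atic, which adds the other formyl group and closes the ring, had 17720, 16361 and 16535 reads in wild type and 13207, 12890 and 11899 in knockout. For Atic (ENSMUSG00000026192; chromosome 1, 71557150 to 71579631, plus strand) the change was -0.41 ± 0.08 (limma adjusted p = 0.0143), the largest of this branch. Adsl, adenylosuccinate lyase, was at 6357 ± 168 reads (SD, n = 3) and 5194 ± 203 (-0.29 ± 0.07; limma adjusted p = 0.0406).

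Calls of this branch were lost when single libraries were left out. Adsl lost its call when any library was left out (limma adjusted p 0.0684 to 0.144), Ppat kept it only without knockout library 2 (range 0.0295 to 0.142) and Gart only without wild-type library 2 (0.0249 to 0.178). Atic lost it without knockout library 3 or wild-type library 1 or 3 (up to 0.0769), and Gart shares 19.7% of its exon length with the antisense gene Gm15964.

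Pfas, which acts between activities of Gart, and Paics, which acts between Gart and Adsl, were not called. Pfas had 6669, 5783 and 6699 reads in wild type and 6184, 5841 and 6601 in knockout, overlapping groups with a change of -0.04 ± 0.09 (SE; limma adjusted p = 0.828). Paics had 18311, 17969 and 18163 reads in wild type and 16238, 16999 and 14182 in knockout (-0.20 ± 0.09; limma adjusted p = 0.178). Its groups did not overlap, and the knockout spread (SD 1457, n = 3) was wider than that of wild type (SD 172). Ppat and Paics lie head to head on chromosome 5, Ppat from 76913249 to 76951578 on the minus strand and Paics from 76951307 to 76967509 on the plus strand, and 272 bases of their exons overlap. That is 6.15% of the exon length of Ppat and 8.67% of that of Paics, so without a known strand setting some reads of each could belong to the other. The synthetases of activated ribose phosphate, Prps1 (-0.24 ± 0.11; limma adjusted p = 0.190) and Prps2 (-0.17 ± 0.10; limma adjusted p = 0.360), did not pass, and both pairs of groups overlapped.

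**Figure D3:**
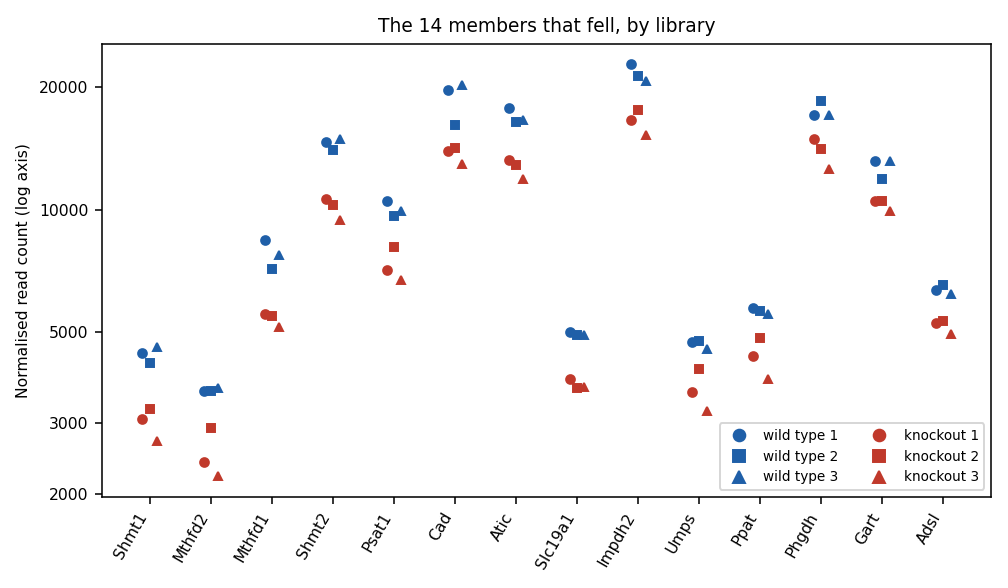
The 14 members that fell, each with its normalised read count in 6 libraries (log axis); wild type is blue, knockout is red, and shapes tell the library numbers apart. For each gene the 3 knockout points lie below the 3 wild-type points, from Mthfd2 at 2219 to Impdh2 at 22690 reads.

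Past inosine monophosphate, 1 of 3 guanine nucleotide enzymes fell. Impdh2, the inosine monophosphate dehydrogenase isoform that rises in dividing lymphocytes, had 22690, 21283 and 20684 reads in wild type and 16577, 17503 and 15213 in knockout. For Impdh2 (ENSMUSG00000062867; chromosome 9, 108560286 to 108565584, plus strand) the change was -0.39 ± 0.08 (SE; limma adjusted p = 0.0214), lost without knockout library 1 or 3 or wild-type library 1 or 3 (up to 0.106). Impdh1, the isoform held to be more constant, had 11576, 11961 and 11928 reads in wild type and 12858, 10577 and 10786 in knockout, where knockout library 1 was the highest of all 6 (-0.06 ± 0.09; limma adjusted p = 0.746). Gmps, which aminates xanthosine monophosphate, was at 8724 ± 374 reads (SD, n = 3) and 7981 ± 666 (limma adjusted p = 0.380).

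In pyrimidine synthesis the transcripts of Cad and Umps, which encode the multifunctional proteins at its start and end, fell. Cad had 19669, 16149 and 20245 reads in wild type and 13953, 14152 and 12943 in knockout, so wild-type library 2 lay nearest to the knockouts (-0.44 ± 0.10 SE; limma adjusted p = 0.0252). Umps had 4745, 4760 and 4552 reads in wild type and 3560, 4056 and 3203 in knockout (-0.38 ± 0.10; limma adjusted p = 0.0373; edgeR adjusted p = 0.0546). Cad kept its call only without wild-type library 2 (limma adjusted p 0.00412 to 0.117) and Umps only without knockout library 2 (0.0267 to 0.141). Dhodh, the mitochondrial enzyme between them and the target of brequinar, had 1599, 1723 and 1611 reads in wild type and 1418, 1316 and 1311 in knockout, groups that did not overlap, and did not pass (-0.29 ± 0.09; limma adjusted p = 0.0756). The CTP synthetases Ctps (-0.16; limma adjusted p = 0.282) and Ctps2 (-0.09; limma adjusted p = 0.619) did not pass either, with overlapping groups.

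None of the 3 enzymes of deoxynucleotide synthesis was called by limma (2 at an unadjusted p below 0.05), by edgeR or by DESeq2. Tyms, thymidylate synthase, had 5211, 4913 and 5150 reads in wild type and 4348, 4454 and 3542 in knockout (-0.31 ± 0.10 SE; limma adjusted p = 0.0797), with no overlap between the groups. Rrm1, the large subunit of ribonucleotide reductase, had 19593, 16663 and 19376 reads in wild type and 16605, 16528 and 13163 in knockout (-0.27 ± 0.11; limma adjusted p = 0.164), with wild-type library 2 at the level of the upper knockouts. Rrm2, its S phase small subunit, had 10612, 8377 and 10579 reads in wild type and 9102, 8646 and 7196 in knockout, so the groups overlapped (limma adjusted p = 0.240).

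Some genes of dividing cells fell as well. Of 18 S phase genes 4 fell (Mcm2, Mcm5, Mcm6 and Pola1) and 17 had negative log2 fold changes, with a median of -0.24. Their summed level was 181917, 174037 and 175083 normalised reads in wild type and 142670, 160745 and 127949 in knockout, with knockout library 3 again lowest. Of 18 mitosis genes none was called by limma (10 lower at an unadjusted p below 0.05; 0 by edgeR, 2 by DESeq2), yet all 18 were negative, with a median of -0.33. The members' median of -0.28 lay between these. The part of the proliferating share of cells in the changes of the members was not tested.

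Levels per length placed these enzymes across a wide range. Length was the union of all annotated exons of a gene over its transcripts. The order of the genes therefore depends on the annotation as well as on the reads. In wild type the highest were Phgdh at 7040 ± 331 (SD, n = 3) and Impdh2 at 7004 ± 335 normalised reads per kb of exon, which did not differ beyond their spread, then Paics at 5781 ± 54.6 and Shmt2 at 4662 ± 145. The lowest tested were Ggh at 9.43 ± 8.38 and Mthfd2l at 20.9 ± 8.31, whose ranges overlapped, followed by Amt at 44.8 ± 9.07 and Slc25a32 at 74.6 ± 4.48. Of the members 30 had a mean of at least 1000 normalised reads over all libraries, and the 14 that fell were among these. Of 8 tested members that work in mitochondria 2 fell (Shmt2 and Mthfd2), with a median of -0.28, and of the other 26 members 12 fell and 1 rose, also with a median of -0.28.

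**Figure D4:**
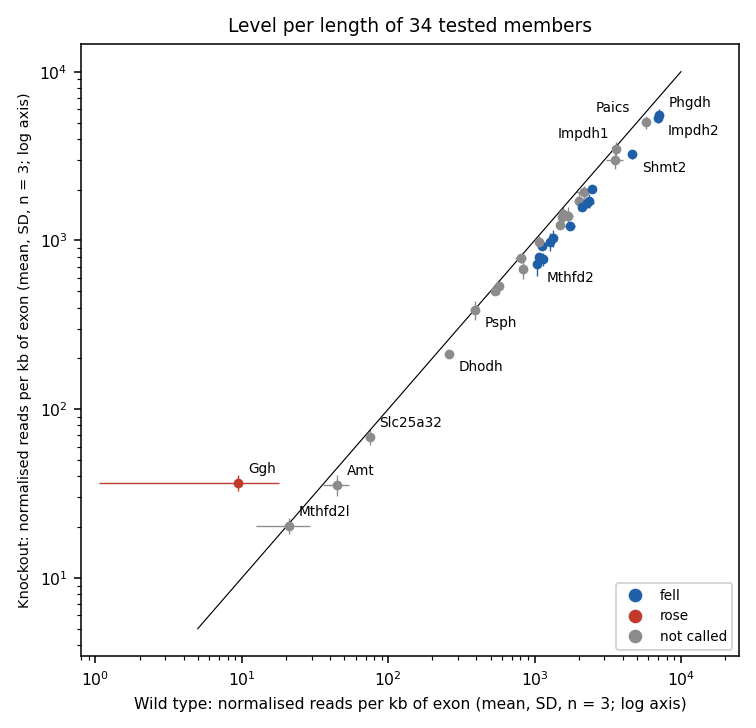
Normalised reads per kb of exon in wild type (horizontal) and knockout (vertical), both on log axes, for the 34 tested members; points are means, bars the SD (n = 3) and the line marks equal levels. The members that fell lie below the line at 1034 reads per kb or more in wild type, and Ggh lies above it at the left.

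Paralogs with like activity were compared as a ratio within each library, which does not depend on library scaling. For 7 such pairs the exact two-sided permutation test of 3 against 3 libraries cannot give a p below 0.1. The longest identical stretch between the transcripts of a pair was 19 to 29 bases, against reads of 150 bases. Shmt2 over Shmt1 had ratios of read counts of 3.29, 3.32 and 3.23 in wild type and 3.47, 3.16 and 3.48 in knockout, so the groups overlapped (knockout minus wild type 0.04 on the log2 scale; exact p = 0.4, adjusted over the pairs 0.56). In 3 pairs the groups did not overlap, each with an exact permutation p of 0.1 (adjusted over the pairs 0.233).

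The first of these was Mthfd1l over Mthfd1, with log2 ratios of -0.28, -0.16 and -0.22 in wild type and -0.04, 0.08 and 0.03 in knockout, so the mitochondrial synthetase was higher relative to its cytosolic relative in the knockout by 0.25. Impdh2 over Impdh1 had 0.97, 0.83 and 0.79 in wild type and 0.37, 0.73 and 0.50 in knockout, a difference of -0.34. Rrm2 over Rrm2b had 3.46, 3.64 and 3.73 in wild type and 3.09, 3.08 and 2.79 in knockout, a difference of -0.62. Rrm2b, the small subunit that p53 induces and that serves cells outside S phase, had 962, 669 and 798 reads in wild type and 1064, 1021 and 1040 in knockout (0.38 ± 0.13 SE; limma adjusted p = 0.112), so it was higher without passing the test. In Mthfd2 over Mthfd2l (-0.57, and -0.84 without wild-type library 3 or -0.27 without wild-type library 2; exact p = 0.2), Prps1 over Prps2 (-0.07; exact p = 0.8) and Ctps over Ctps2 (-0.07; exact p = 0.6) the groups overlapped.

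**Figure D5:**
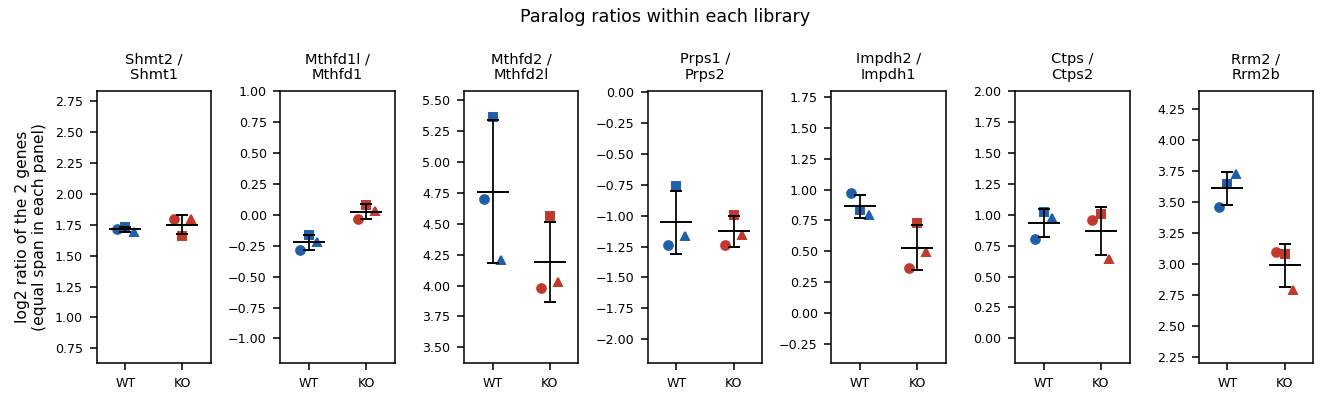
Log2 ratio of the normalised read counts of 2 paralogs in each library for 7 pairs, with wild type in blue, knockout in red, marker shapes for library numbers, black lines for group means and bars for the SD (n = 3); every panel spans the same log2 range. The groups are apart for Mthfd1l over Mthfd1, Impdh2 over Impdh1 and Rrm2 over Rrm2b.

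Calls among genes that surround the members went in both directions. Of 115 such genes in 7 lists 103 were matched and 98 tested, of which 6 fell and 7 rose. Over all genes tested 3.43% fell and 5.32% rose. The median log2 fold changes of the lists ran from -0.13 for the regulators to 0.21 for the nucleoside carriers, the only positive median. Ahcy, which clears S-adenosylhomocysteine in the methionine cycle, fell from 8987 ± 331 to 6710 ± 694 reads (SD, n = 3 each; -0.43 ± 0.09 SE; limma adjusted p = 0.0222), and Mthfs, which returns stored formyl folate to use, rose from 90.5 ± 21.5 to 172 ± 7.66 (0.94 ± 0.22; limma adjusted p = 0.0271). These were the calls among 15 further folate and methionine cycle enzymes. Slc29a1, the equilibrative carrier of nucleosides and their drug analogues, had 16174, 16631 and 15427 reads in wild type and 11163, 12889 and 10885 in knockout (-0.47 ± 0.09; limma adjusted p = 0.0129) and was the 1 fall among 6 nucleoside carriers. In serine and glycine transport and breakdown 1 of 11 rose, the glycine carrier Slc6a9 (0.88).

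Of 26 partners and salvage enzymes of the purine route 2 fell, among them Prpsap1 (-0.31), which binds the Prps enzymes, and 3 rose, Gda (2.52), Ak4 (1.17) and Pnp2 (0.95). Guanine deaminase, Gda, had 101, 249 and 115 reads in wild type and 582, 908 and 1073 in knockout (limma adjusted p = 0.0124). Among 13 genes that supply or limit deoxynucleotides, the nucleoside diphosphate kinase Nme1 fell (-0.38) and Nme4 (0.85) and Samhd1 (2.20) rose. Samhd1, the hydrolase that breaks down deoxynucleotides and is high in myeloid cells, had 103, 198 and 81.3 reads in wild type and 316, 751 and 699 in knockout (limma adjusted p = 0.0299). For both Gda and Samhd1 wild-type library 2 was the highest wild-type library, as for the neutrophil and the monocyte marker sums. Knockout library 1 was their lowest knockout library. Among knockout libraries the neutrophil sum was lowest in library 3, and the monocyte and macrophage sum in library 1 (9257, beside 15706 and 12444). Samhd1 ranked all libraries in the same order as the monocyte and macrophage sum, and Gda did not. The part of myeloid cells in these rises was not tested. In pyrimidine salvage none of 16 was called by limma (4 lower at an unadjusted p below 0.05; 0 by edgeR, 3 by DESeq2). Of 11 regulators Atf5 fell (-0.35; limma adjusted p = 0.0488; edgeR adjusted p = 0.0617). Atf4, an activator of serine synthesis genes, had 11723, 20312 and 10088 reads in wild type and 10297, 18602 and 10729 in knockout, high in library 2 of both groups (limma adjusted p = 0.924).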

How the data were processed

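PolyA RNA was measured in 3 Phf6-WT and 3 Phf6-KO libraries, grouped by the sample titles. The submitters' processing notes name STAR 2.6.0a, bcl2fastq 1.8.4, DESeq2, featureCounts and the build GRCm38. Strand setting, annotation and multimapping: not given in the sources used here. The authors deposited 1 signal value for each gene in each library, namely reads over a size factor: every value was a whole multiple of the library's step (100% within 0.01). Of 23314 rows 8 had no identifier (at most 0.00106% of reads) and were left out.

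The test was limma 3.58.1 (R 4.3.3, trend, robust) on log2(value + 2), for genes with at least 10 normalised reads in at least 3 libraries. Benjamini-Hochberg adjustment was over every tested gene, with a threshold of 0.05. A larger added value pulls the limma changes of low genes towards 0, but the limma change need not be below that of the count models. edgeR 4.0.16 and DESeq2 1.42.0 on recovered reads, other scalings, pseudocounts and filters, a replicate block and leaving out each library were alternatives. Positions and exon lengths came from GENCODE M21, with exon length taken as the union of all annotated exons of a gene. Members and lists were chosen with earlier results of these data known. Named genes were Phf6, all members, and called genes or up to 3 abundant others of each list; Rrm2b was named through its pair. Figures used Python 3.11.15 and matplotlib 3.10.9. The values of 1 gene that fell in the purine partner and salvage list are not reported here.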

Additional observations from a re-analysis of the deposited data

How the results depend on the processing

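No called member changed sign in any of the 17 alternatives, but many calls sat near the threshold. Falls among members numbered 8 with library totals and 1 (Shmt2) with limma without trend or robust variance, where no member rose, and 2 to 11 when 1 library was left out, with 0 or 1 rise. All genes called numbered 652 without trend or robust variance and 191 to 1939 with 1 library left out. The median of the members was -0.20 with library totals. Fits with 1 library left out have fewer samples, but at equal number they gave from 191 calls without knockout library 3 to 1939 without wild-type library 2. With all 6 libraries 1575 genes were called. The cause of these differences was not tested. With the replicate number as a block 2568 genes were called and 16 members fell, Tyms and Mthfd1l added. Same-numbered libraries deviated together with correlations of 0.012, 0.50 and 0.14 for numbers 1 to 3, and libraries 1 and 3 did not correlate best with their own number, so the numbers were not taken to pair samples. Signs turned for members that were never called: Mthfd2l (-0.0203 with edgeR, -0.0232 with DESeq2, -0.27 to 0.32 with 1 library left out), Psph (0.00999 with edgeR, 0.0054 with DESeq2, 0.068 with totals, 0.0195 with upper quartiles, -0.0816 to 0.10 with 1 library left out), Impdh1 (0.0267 with totals) and Pfas (0.0451 with totals, -0.11 to 0.0045 with 1 library left out). The log2 ratio difference ran from -0.16 to 0.0725 for Prps1 over Prps2 and from -0.13 to 0.0456 for Ctps over Ctps2 with 1 library left out.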
